A study of Mus musculus with 7 samples.

Results

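Aquaporins are membrane channels that let water, and in some members glycerol, cross a cell membrane down its gradient. In the heart, Aqp1 is known as the water channel of the capillary endothelium, and it is also abundant in red blood cells. Aqp3 and Aqp7 are aquaglyceroporins, which pass glycerol as well as water, and Aqp7 is best known as the glycerol channel of adipocytes. Aqp11 is an intracellular member of the family whose sequence departs from the classical channels. The 4 genes described here, Aqp1, Aqp3, Aqp7 and Aqp11, were found by their symbol among the 20343 genes of the analysed count table. They were selected on their levels in the comparison described below, with earlier results of the same hearts known, so their own differences between the groups are given as a description without a test.

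The series measured polyadenylated RNA from the apex of the heart in 7 mice of the strain labelled NSG-DRB1*0101, an immunodeficient strain that carries the human HLA-DR1 molecule. NSG mice lack T, B and natural killer cells of their own but keep macrophages and neutrophils. The 4 control mice had the treatment label control. Human CD4+ T cells had been given to the 3 transferred mice, which were sampled 6 weeks later. Age and sex of the mice, and the donors and number of the transferred cells, are not given in the sources used here, and nothing in them says whether hearts were processed together. P-values measure the spread between these hearts only. The genes analysed lie on chromosomes 1 to 7 and the first stretch of chromosome 8 (GRCm38.p6), with 16402194 to 25190580 counts per heart, which are not library depths. Of the 12 aquaporin family genes looked for, 6 were in this part of the genome, namely the 4 members, Aqp8 and Aqp12, and the other 6 are not analysed here. Levels are in CPM, each gene's count relative to the TMM-scaled total of the genes in this table, not of the whole library. The tissue label was borne out by its defining markers. All 10 cardiomyocyte markers in the table were at 946 CPM or more in every heart, and the ventricular myosin light chain Myl2 averaged 19722 CPM in control hearts.

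Aqp1 lies on chromosome 6 at positions 55336299 to 55348555 on the plus strand, with 2760 bases of combined exons. Aqp7 (41033074 to 41048237) and Aqp3 (41092724 to 41098183) lie on the minus strand of chromosome 4, separated by 44.5 kb that hold the small nuclear RNA gene Gm25637, which had 0 reads. Aqp11 lies on the minus strand of chromosome 7 at 97726379 to 97738247, which is 309 kb from Thrsp. Aqp8 is on the plus strand of the same chromosome at 123462294 to 123468003. No other gene of the table overlapped any of the family genes, so their counts do not share exon space with an antisense or host gene. Fractional values were present in 1 of 7 hearts for Aqp1 and in none for the other members.

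The bases just before an annotated start are shown for the 3 most abundant of the 6 aquaporins in the table, since these are the genes the values below turn on. They are the 250 bases upstream, 5′ to 3′ on the gene's strand, from the RefSeq promoter table of GRCm38.p6. Aqp1 is chr6:55336049-55336298 on the plus strand, Aqp8 is chr7:123462044-123462293 on the plus strand, and Aqp7 is chr4:41048137-41048386 on the minus strand, the outer of 2 Aqp7 starts in that table. Both of these starts lie inside the span the count table gives for Aqp7, as do part of the outer window and all of the inner one. Capitals mark the letters CACCC on either strand, the core bound by Krüppel-like factors. They also mark the letters AGATAA on either strand, which GATA factors bind.
Aqp1: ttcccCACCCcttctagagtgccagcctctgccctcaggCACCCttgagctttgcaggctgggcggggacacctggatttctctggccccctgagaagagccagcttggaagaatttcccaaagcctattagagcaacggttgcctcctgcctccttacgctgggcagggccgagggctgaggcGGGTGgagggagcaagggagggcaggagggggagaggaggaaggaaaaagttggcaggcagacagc
Aqp8: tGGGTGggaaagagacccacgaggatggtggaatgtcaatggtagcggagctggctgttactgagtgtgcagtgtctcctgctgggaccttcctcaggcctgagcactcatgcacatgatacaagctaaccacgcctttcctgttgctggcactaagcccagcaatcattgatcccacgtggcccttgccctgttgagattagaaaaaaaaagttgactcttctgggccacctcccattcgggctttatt
Aqp7: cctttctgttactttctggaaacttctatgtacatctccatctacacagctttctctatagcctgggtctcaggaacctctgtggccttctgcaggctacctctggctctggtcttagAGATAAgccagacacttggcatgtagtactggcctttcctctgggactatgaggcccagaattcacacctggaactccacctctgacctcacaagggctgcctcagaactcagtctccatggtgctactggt
The Aqp1 window held 3 CACCC matches, the Aqp8 window 1 and the outer Aqp7 window 0, while the inner Aqp7 window, not shown, held 1. CACCC was present in 52.0% of the 32851 promoter windows of this length, and AGATAA, found once in the outer Aqp7 window and not in the inner, in 9.99%. The TATA box TATAAA was in none of the 3 windows and in 12.4% of all windows, while it was present in the Aqp3 window. The E-box CANNTG occurred in all 3 windows and in 66.2% of all windows. The Aqp1 window was 62.0% G and C against a median of 52.4% over all windows. These matches describe the letters only, and none of the measurements bears on binding of a factor.

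Aqp1 was the most abundant of the 6 aquaporins in the table, and every transferred heart held less of it than every control heart. Its level was 808, 861, 727 and 960 CPM in control hearts 1 to 4 and 489, 355 and 407 CPM in transferred hearts 1 to 3. The highest transferred heart was therefore well under the lowest control heart, and the transferred mean was 49.7% of the control mean. The means were 839 ± 97.5 CPM (SD, n = 4) and 417 ± 67.7 CPM (SD, n = 3), and the edgeR log2 fold change was -1.01 with a standard error of 0.13. Counting error was small beside this, since a single heart held between 7544 and 20018 reads of Aqp1. The spread between hearts, 11.6% of the mean in control and 16.2% in transferred hearts, was many times the counting spread of 0.752% and 1.09%. In whole tissue, fewer cells of a type and less RNA per cell cannot be told apart.

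Aqp7, the glycerol channel, was lower on average in transferred hearts, but the groups overlapped. It was at 40.9, 25.6, 32.3 and 27.8 CPM in control hearts 1 to 4 and at 20.6, 26.4 and 25.3 CPM in transferred hearts 1 to 3. Control heart 1 stood highest, and control heart 2 lay among the transferred hearts. The means were 31.7 ± 6.77 CPM (SD, n = 4) and 24.1 ± 3.11 CPM (SD, n = 3), and edgeR put the log2 fold change at -0.39 (standard error 0.17). Among the transferred hearts the order differed from that of Aqp1. Transferred heart 1 had the lowest Aqp7 and the highest Aqp1 of the 3, and transferred heart 2 had the highest Aqp7 and the lowest Aqp1.

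Aqp11, the intracellular family member, was low but above the limit of 3 counts in every heart. It was at 1.51, 2.11, 1.73 and 1.39 CPM in control hearts 1 to 4 and at 1.11, 1.41 and 1.24 CPM in transferred hearts 1 to 3. Transferred heart 2 lay just above control heart 4, so the groups overlapped. The log2 fold change was -0.43 with a standard error of 0.28. These levels rest on 22 to 49 reads per heart. The exact 95% Poisson intervals of the counts ran from 0.870 to 2.10 CPM in the lowest control heart and from 1.56 to 2.79 CPM in the highest. The first held all 3 transferred values and the second held none. The spread between control hearts, 18.8% of the mean, was near the 16.5% that counting gives by itself.

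Aqp3, the other aquaglyceroporin, was not measurable as a cardiac transcript at this depth. It had 1 read in control heart 1, 3 reads in control heart 2 and 0 reads in the other 5 hearts. A count of 3, taken as the smallest that can be told from 0, corresponds to between 0.115 and 0.189 CPM, so a level below this cannot be seen. No fold change is given, because both groups were at or under this limit, and Aqp3 did not pass the filter on low counts. The name cardiac aquaporin is therefore not borne out by these data for Aqp3. Its expressed neighbour Nol6, 16243 bases away, averaged 52.9 ± 5.58 CPM (SD, n = 4) without transfer.

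**Figure D1:**
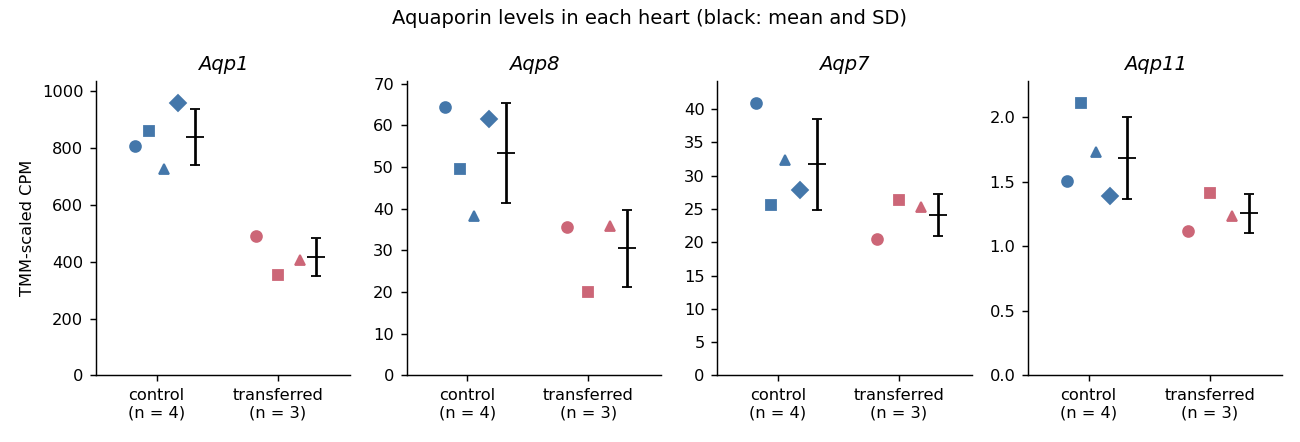
Level of Aqp1, Aqp8, Aqp7 and Aqp11 in each heart, in TMM-scaled CPM on linear axes from 0, with control hearts in blue, transferred hearts in red, a marker shape per replicate, and the mean and SD in black. Aqp1 and Aqp8 do not overlap between the groups, at 727 to 960 against 355 to 489 CPM and at 38.2 to 64.3 against 19.9 to 35.9 CPM, while Aqp7 and Aqp11 overlap.

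Aqp8, a channel known to pass water, ammonia and hydrogen peroxide, was not among the members but was the family gene after Aqp1 in level per kb of exon, as given below. It was at 64.3, 49.6, 38.2 and 61.5 CPM in control hearts 1 to 4 and at 35.6, 19.9 and 35.9 CPM in transferred hearts 1 to 3. Control heart 3 and transferred heart 3 were close, and transferred heart 2 was far below the rest. The means were 53.4 ± 12.0 CPM (SD, n = 4) and 30.5 ± 9.16 CPM (SD, n = 3), and edgeR put the log2 fold change at -0.81 (standard error 0.24). The difference did not pass the threshold in edgeR's quasi-likelihood test with Benjamini-Hochberg adjustment over all genes (adjusted p = 0.227), while DESeq2 gave an adjusted p of 0.0211. Over all alternatives the adjusted p ran from 0.0211 to 0.437. Aqp12 had 0 reads in all hearts.

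Of the 4 members, 3 passed the filter on low counts. The groups did not overlap for 1 of these 3, with transferred hearts below control hearts, as for 5.22% of all 7667 tested genes. Since the members were proposed from this comparison, nothing is read from this share. Without each heart in turn, the log2 fold change of Aqp1 lay between -1.14 and -0.90.

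The order of the levels was the same in all 7 hearts when counts were divided by exon length. In control hearts Aqp1 was at 304 ± 35.3 CPM per kb of exon (SD, n = 4), Aqp8 at 35.9 ± 8.08, Aqp7 at 9.70 ± 2.07 and Aqp11 at 1.27 ± 0.240 CPM per kb. In transferred hearts these levels were 151 ± 24.5, 20.5 ± 6.17, 7.38 ± 0.951 and 0.948 ± 0.113 CPM per kb (SD, n = 3). No neighbouring genes in this order overlapped within a group. Aqp1 made up between 83.7% and 87.9% of the summed per-kb level of the 6 family genes in control hearts and between 81.8% and 85.1% in transferred hearts, and these ranges overlapped. The summed level itself ran from 300.2 to 398.6 CPM per kb in control hearts, while transferred hearts held 151.1 to 208.3.

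**Figure D2:**
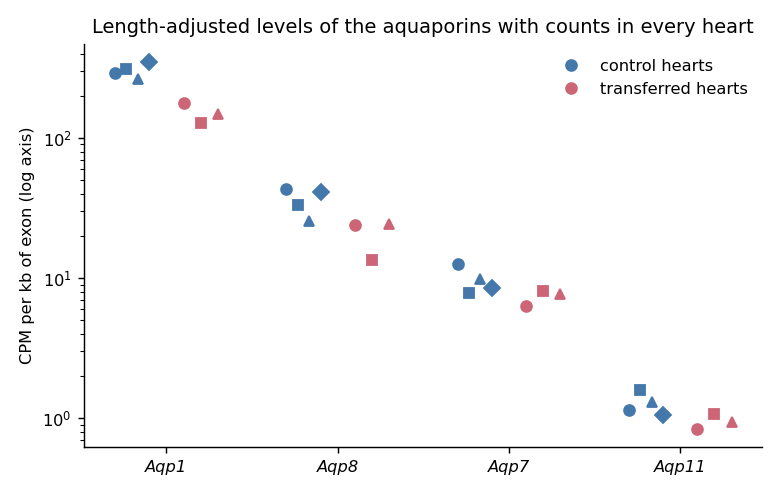
Length-adjusted levels (CPM per kb of exon, log axis) of the 4 aquaporins with reads in every heart, 1 point per heart, control in blue and transferred in red, marker shape by replicate. The order Aqp1, Aqp8, Aqp7, Aqp11 holds in each heart, and Aqp3 and Aqp12 are not drawn because they were at 0 in most or all hearts.

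The ratio between members moved less evenly. Per kb, Aqp1 exceeded Aqp7 by 23.4 to 40.8 times in control hearts and by 15.9 to 28.2 times in transferred hearts, so the ranges overlapped. Aqp1 exceeded Aqp8 by 6.77 to 10.3 times in control hearts and by 6.10 to 9.60 times in transferred hearts. The ratio of Aqp1 to Aqp8 thus covered nearly the same range in both groups.

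The labels name no batch, but the animals' identifiers begin with letters in control heart 1 and transferred heart 1 and consist of numbers in the other 5. For Aqp1 the log2 ratio of mean CPM was -1.16 within the hearts identified by numbers (3 control, 2 transferred) and -0.72 between the pair with letters. For Aqp8 these were -0.83 and -0.85, and for Aqp11 -0.40 and -0.44. Aqp7 differed the most between the forms, with -0.14 within the hearts identified by numbers and -0.99 between the pair with letters. Most of the mean difference in Aqp7 therefore came from this pair.

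The summed level of endothelial markers overlapped between the groups, whereas Aqp1 did not. The 15 endothelial markers in the table (among them Kdr and Flt1, receptors for VEGF, Cd34, Eng and Tek) summed to between 3361 and 4006 CPM in control hearts and to between 3547 and 4118 CPM in transferred hearts. None of the markers was at 0. By edgeR 0 of the 15 passed the threshold, against 0.235% of all tested genes. At an unadjusted p under 0.05, 1 was lower and 2 were higher, against 5.27% and 7.17% of all tested genes. DESeq2 called 0, against 3.29% of all tested genes. At these shares a count of 0 is near the background for a list of this size and is no result about the list, which holds for the other lists with 0 calls as well. The median log2 fold change of the list was 0.11, against -0.00199 over all tested genes. The most abundant markers were Kdr with a log2 fold change of -0.12, Cd34 with 0.16 and Eng with 0.11. Tie1, an angiopoietin co-receptor, had -0.28 (edgeR adjusted p = 0.185) with no overlap between the groups, and Vwf, the clotting factor carrier of larger vessels, had 1.17 (edgeR adjusted p = 0.200), also with no overlap. Vwf was at 177 and 159 CPM in transferred hearts 1 and 3 and at 381 CPM in transferred heart 2, so its fold change leans on that heart. Both of these were named after their values were seen. They were the 1 of 15 below and the 1 of 15 above without overlap, against 5.22% and 5.99% of all tested genes. At these shares the non-overlap is no result about the list.

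Set against these markers heart by heart, Aqp1 stood at 229, 247, 216 and 240 CPM per 1000 CPM of endothelial markers in control hearts 1 to 4. It stood at 130, 86.2 and 115 in transferred hearts 1 to 3. The control hearts lay close together on this scale, and all transferred hearts were far below them. The mean log2 ratio differed by -1.10, and by -1.05 with Vwf left out of the list. This ratio does not depend on how the hearts were scaled to each other.

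**Figure D3:**
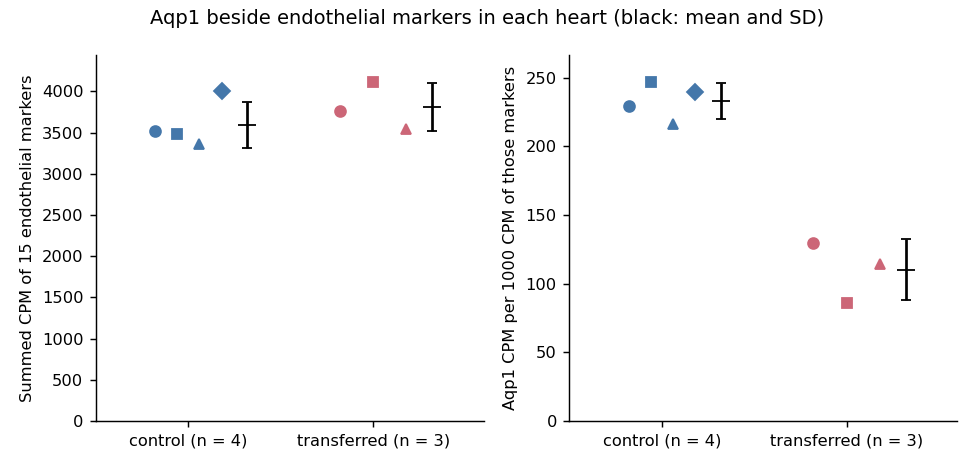
Left, summed CPM of 15 endothelial markers in each heart, and right, Aqp1 CPM per 1000 CPM of those markers, both on linear axes from 0, with control hearts in blue, transferred hearts in red, and the mean and SD in black. The marker sums overlap (3361 to 4006 against 3547 to 4118 CPM), while the ratio does not (216 to 247 against 86.2 to 130).

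Of the 19 capillary endothelial markers looked for, 12 were in the table, and 1 of these passed the edgeR threshold. The median log2 fold change of the list was -0.03, and none of its genes was at 0. Its summed level ran from 8651 to 9719 CPM in control hearts against 8846 to 10705 CPM in transferred hearts. Much of this sum was Cd36, at 4910 ± 294 CPM (SD, n = 4) in control hearts. Aplnr, the receptor for apelin, fell. It stood at 132 ± 17.4 CPM (SD, n = 4) in control hearts against 70.3 ± 9.74 CPM (SD, n = 3) in transferred hearts, and its log2 fold change was -0.91 (edgeR adjusted p = 0.0384). No other gene of the list passed. Over all tested genes 0.104% passed as lower by edgeR. DESeq2 also called only Aplnr of the list, against 3.29% of all tested genes called by DESeq2 in either direction. Its most abundant genes were the fatty acid transporter Cd36 with a log2 fold change of 0.12, the fatty acid binding protein Fabp4 with 0.01 and the caveolar protein Cav1 with 0.06. The call of Aplnr was lost without control heart 1, 2, 3 or 4 or without transferred heart 2. With limma-voom, with the form of the animals' identifiers as a covariate, or with only the hearts identified by numbers, no gene of the table passed, which ends this call and those of Thrsp, C1qb and Mrc1 below. The fold change of Aplnr was steadier on the log2 scale, at values between -0.99 and -0.74 over all alternatives.

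Red cells are another source of Aqp1 transcript, and erythroid markers varied widely within both groups. The adult beta-globin gene Hbb-bs averaged 4188 ± 2887 CPM (SD, n = 4) in control hearts and 3663 ± 3401 CPM (SD, n = 3) in transferred hearts. The 12 erythroid markers in the table summed to between 4420 and 15103 CPM in control hearts and to between 3123 and 13559 CPM in transferred hearts, so the sums overlapped, and none of the 12 was at 0 in all hearts. The 2 hearts with the highest sums, control heart 3 and transferred heart 1, had the lowest Aqp1 of the control hearts and the highest Aqp1 of the transferred hearts. Of the 7 tested markers, 0 passed the edgeR threshold, 0 had an unadjusted p under 0.05, against 12.4% of all tested genes, and DESeq2 called 0. Their median log2 fold change was -0.12, and Hbb-bs, Hbb-bt and the membrane skeleton gene Epb41 had -0.19, -0.21 and -0.12. Mesothelial cells also carry Aqp1. Their 5 markers summed to 15.4 to 47.2 CPM in control hearts and to 24.4 to 35.1 CPM in transferred hearts. The median log2 fold change of these 5 was -0.65, with 0 edgeR calls, 0 at an unadjusted p under 0.05 and 0 DESeq2 calls. The most abundant of them, Wt1, Upk3b and Rspo1, had log2 fold changes of 0.22, -1.09 (standard error 1.31) and -0.08. The part of red cells or mesothelium in the Aqp1 level was not tested.

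Macrophage genes were higher in the transferred hearts, in which Aqp1 was lower. The 10 macrophage and monocyte markers in the table summed to between 477 and 699 CPM in control hearts and to between 833 and 1201 CPM in transferred hearts, with none at 0. The transferred hearts were above the control hearts without overlap for 8 of 10, against 5.99% of all tested genes. By edgeR, 2 of the 10 rose, against 0.130% of all tested genes that passed in this direction, and by DESeq2 10 of 10 rose, against 3.29% of all tested genes called by DESeq2 in either direction. C1qb, a chain of complement C1q, rose by 0.98 on the log2 scale and the mannose receptor Mrc1 by 0.77 (edgeR adjusted p = 0.0384 for each). C1qa and C1qc, the other chains, had 0.93 and 0.84 (edgeR adjusted p = 0.0618 for each). Both edgeR calls were lost without any 1 control heart and without transferred heart 1 or 2. Over 17 settings, the main one included, the log2 fold change of C1qb stayed between 0.861 and 1.1. That of Mrc1 stayed between 0.686 and 0.865. Among the control hearts C1qa, C1qb, C1qc and Mrc1 were lowest in heart 3 and highest in heart 4, as was Aqp1. Lyve1 and Fcer1g of the same list were also highest in control heart 4. Their lowest control hearts, however, were heart 2 for Lyve1 and heart 1 for Fcer1g. The direction of this list was known from earlier results of these hearts and is not independent evidence. The part of the macrophage genes in the lower Aqp1 was not tested.

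Summed markers of the remaining cell types overlapped between the groups. The cardiomyocyte markers summed to between 136692 and 158971 CPM in control hearts and to between 132444 and 165405 CPM in transferred hearts, with a median log2 fold change of -0.00317. Of the 10, edgeR called 0, 0 had an unadjusted p under 0.05, against 12.4% of all tested genes, and DESeq2 called 0. Tnnt2, cardiac troponin T, did not overlap between the groups, with 17490 to 19030 CPM in control and 19890 to 20440 CPM in transferred hearts, a log2 fold change of 0.13, and is named after its values were seen. Non-overlap with transferred hearts above held for 1 of the 10, against 5.99% of all tested genes, and is no result about the list. Actc1, cardiac actin, had a log2 fold change of -0.17 and the calcium pump Atp2a2 -0.08. The 6 fibroblast markers had a median log2 fold change of 0.06, with Gsn at 0.16 and the collagen genes Col3a1 and Col1a2 at -0.12 and -0.20, and again edgeR called 0, 0 had an unadjusted p under 0.05 and DESeq2 called 0. Of 10 mouse T cell genes in the table, 3 were tested and the receptor constant genes Trbc1 and Trbc2 had 0 reads. Their sums were 30.0 to 38.5 CPM in control and 28.5 to 36.1 CPM in transferred hearts. The costimulatory receptor Cd28 had a log2 fold change of -0.13, Cd4 had 0.35 and Cd247, the zeta chain of the receptor complex, had -1.06. By edgeR 0 of the 3 passed and 1, Cd247, was lower at an unadjusted p under 0.05, against 5.27% of all tested genes, and DESeq2 called 0. Cd2, below the filter with 14 reads in all, was at 0 to 0.04 CPM in control and 0.14 to 0.25 CPM in transferred hearts. It was named after its values were seen. The table counts mouse genes, so it gives no measure of the transferred human cells. Whether human reads reached mouse genes was not tested.

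Adipocyte markers and the glycerol pathway were examined beside Aqp7. Of 7 tested adipocyte markers, edgeR called 1, which was lower, against 0.104% of all tested genes. This was Thrsp, a regulator of lipogenesis, which fell. It stood at 107 ± 19.7 CPM (SD, n = 4) in control hearts against 49.2 ± 5.13 CPM (SD, n = 3) in transferred hearts, and its log2 fold change was -1.11 (edgeR adjusted p = 0.0384). Its call was lost without control heart 1, 2 or 4 or without transferred heart 2. Over 18 settings, the main one included, its log2 fold change stayed between -1.23 and -1.04. The list summed to between 1845 and 2110 CPM in control hearts and to between 1686 and 2099 CPM in transferred hearts, and its median log2 fold change was 0.01. Much of this sum was Fabp4, at 1199 ± 78.0 CPM (SD, n = 4) in control hearts, which is also a capillary gene. The adipocyte genes Plin1, Lep, Retn, Cidec and Pck1 were at or under 0.51 CPM, each with 0 reads in 2 to 5 hearts. The most abundant markers were Fabp4, the triglyceride synthase Dgat2 at -0.36 on the log2 scale (edgeR adjusted p = 0.243) and the hormone-sensitive lipase Lipe with 0.20.

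Of 9 tested genes of glycerol and triglyceride handling, edgeR called 0, and DESeq2 called 0. At an unadjusted p under 0.05, 2 were lower and 1 was higher, against 5.27% and 7.17% of all tested genes. Their median log2 fold change was -0.10. The lipases that release glycerol from triglyceride were among the most abundant. Pnpla2, which starts this breakdown, was at 899 ± 117 CPM (SD, n = 4) and 748 ± 96.3 CPM (SD, n = 3), or -0.27 as a log2 fold change. Mgll, which releases the last fatty acid, had -0.18.

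Genes that regulate cell volume and osmolyte content were examined because water channels act beside them. Of 14 tested genes, edgeR called 0, against 0.235% of all tested genes, and DESeq2 called 0, against 3.29%. At an unadjusted p under 0.05, 1 was higher, against 7.17% of all tested genes. The median log2 fold change was -0.00280. The kinase Wnk1, which controls ion cotransporters in response to volume and chloride, had a log2 fold change of -0.04. Clic4 had -0.01, and Akr1b3, the aldose reductase that makes the osmolyte sorbitol, had -0.07. The list summed to between 4698 and 4885 CPM in control hearts and to between 4713 and 5099 CPM in transferred hearts.

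**Figure D4:**
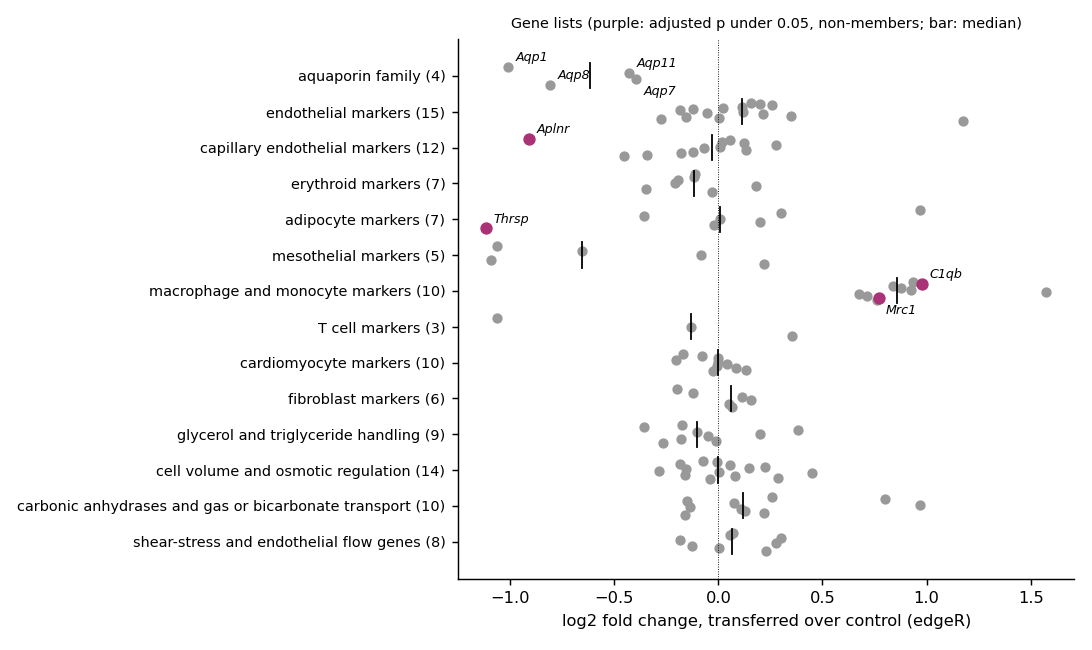
The edgeR log2 fold change (transferred over control) of each tested gene of the fixed lists, 1 point per gene, with the number tested in parentheses, the median as a bar and genes other than the members with an adjusted p under 0.05 in purple. The aquaporins sit between -1.01 and -0.39, while the medians of the endothelial (0.11) and volume regulation (-0.00280) lists lie near 0 and the macrophage median is 0.86.

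The genes whose levels followed Aqp1 most closely over the 7 hearts were ranked by the root mean square difference between log2(CPM + 0.5) profiles, each centred on its own mean. Of 7666 genes ranked, the nearest were Egf (0.128), Thrsp (0.133), Cdh4 (0.146), Susd4 (0.156) and 2310015K22Rik (0.170). Egf encodes the epidermal growth factor precursor and Cdh4 is a classical cadherin. Egf was at 24.7, 24.4, 20.9 and 26.6 CPM in control hearts 1 to 4 and at 14.8, 10.3 and 14.9 CPM in transferred hearts 1 to 3. As for Aqp1, its lowest control heart was heart 3, its highest control heart was heart 4, and its lowest transferred heart was heart 2. Susd4 and 2310015K22Rik were at or under 1.51 CPM in every heart, so their profiles rest on few reads. With genes of at least 10 CPM only, Cdkn1c and Paqr7 took their places. Within the family, Aqp8 stood at rank 27 (0.258), Aqp11 at rank 830 (0.443) and Aqp7 at rank 1267 (0.468). This ranking is a description over 7 hearts that share the contrast between groups.

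**Figure D5:**
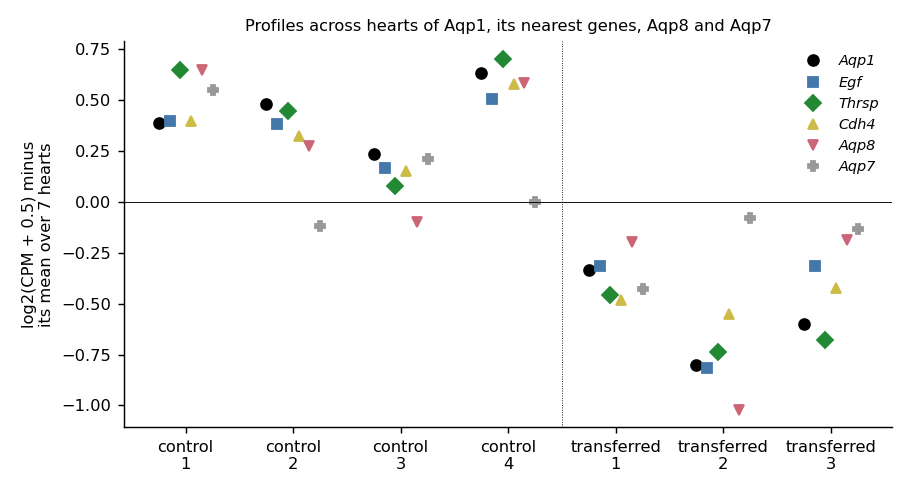
Centred log2(CPM + 0.5) of Aqp1, the 3 genes nearest to it, Aqp8 and Aqp7 in each heart, 1 marker per gene, with the dotted line between control and transferred hearts. Egf, Thrsp and Cdh4 keep close to Aqp1 in all hearts, whereas Aqp7 stays near its mean in transferred hearts 2 and 3, where Aqp1 is at its lowest.

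The genes that flank the aquaporins were looked at for differences along the chromosome. Nfx1, 7081 bases from Aqp7, had a log2 fold change of -0.07, and Nol6 beside Aqp3 had -0.07. Clns1a, 5585 bases from Aqp11, had 0.02, and Lcmt1 and Zkscan2 on either side of Aqp8 had 0.05 and 0.18. Kif1a, 3185 bases from Aqp12, had 0.26. By edgeR's quasi-likelihood test, none of these 6 passed the threshold, with adjusted p-values from 0.788 to 0.962. Both annotated neighbours of Aqp1, the long noncoding RNA gene Gm38819 and the hormone receptor gene Ghrhr, had 0 reads in all hearts.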

How the data were processed

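The authors deposited a table of raw read counts, with the combined exon length of each gene per the file headers. Since 4.63% of the values had a fractional part, they were taken as estimated counts, as deposited by the authors, and rounded. The submitters' processing notes name cutadapt 2.5, STAR 2.7.2b, featureCounts 1.6.4, DESeq2 1.22.2 and GRCm38.p6, and their settings are not given in the sources used here. Of the rows, 20343 were complete and 1 unfinished row was left out. Groups came from the treatment label, and replicates were numbered in accession order.

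Genes were filtered with filterByExpr and scaled by TMM in edgeR 4.0.16 (R 4.3.3), leaving 7667 genes for the quasi-likelihood test (robust) with Benjamini-Hochberg adjustment and a threshold of 0.05. Standard errors came from the F statistic. DESeq2 1.42.0 and limma 3.58.1 were alternatives. On simulated counts with log2 changes of 1 and -1, the procedure recovered 86.0% and 79.6% of changed genes. In that simulation the spread of every gene followed the fitted trend, and no gene or heart was noisier than it. Recovery in the real hearts may therefore be lower, and these rates do not measure it. Counting intervals and the limit of 3 counts cover counting error only. Same-group hearts differed by 18.2 to 81.5 chi-square units per degree of freedom, so no pair looked like a repeat.

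The members and the 14 gene lists were chosen with earlier results of these data known. Named genes are the members, the other aquaporins of the table, the genes of each list that passed the threshold, its 3 most abundant tested genes, the 5 genes most like Aqp1 and the nearest genes on each side. Other genes named in the text were chosen after their values were seen. No set test was run.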

Additional observations from a re-analysis of the deposited data

Results flagged for a closer look

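Of 47 genes checked for a control heart far from the other 3, 2 were marked, where 2.35 would be by chance. Cav1, the caveolar protein of endothelium, was at 975 CPM in control heart 4 against 768 to 777 CPM in the other control hearts, and Aqp1 was also at its highest, 960 CPM, in that heart. Pnpla2, the triglyceride lipase, was at 723 CPM in control heart 3 against 948 to 968 CPM in the others. None of the 4 aquaporins with reads in every heart was marked.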

How the results depend on the processing

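The log2 fold changes of Aqp1, Aqp7 and Aqp11 were negative under all 16 alternatives looked at for them. The setting of rows with no fractional value was not among these. Without each heart in turn the fold changes of Aqp1, Aqp7 and Aqp11 ran from -1.14 to -0.90, from -0.48 to -0.24 and from -0.52 to -0.30. Aqp7 moved most, to -0.14, with only the hearts identified by numbers alone, and the cause was not tested. No fold change is given for Aqp3, since both groups were at or under the limit of 3 counts. The log2 ratio of Aqp1 to endothelial markers ran from -1.23 to -0.93 over 10 alternatives, of which 2 other marker lists were chosen after seeing the data. Against 18 genes past the threshold (10 higher, 8 lower), there were 35 (26 higher, 9 lower) with total count scaling, 81 (66 higher, 15 lower) with all genes of at least 1 count, 252 (192 higher, 60 lower) with DESeq2 and 9 (3 higher, 6 lower) over rows with no fractional value. The RLE scaling gave 22 (14 higher, 8 lower). The identifier form as a covariate, the hearts identified by numbers alone and limma-voom each left 0, although 973, 1054 and 907 had an unadjusted p under 0.05. Without each heart in turn the count ran from 0 to 140. Against 4 genes past the threshold on the lists, counted without the members but with Aqp8, total count scaling gave 7, DESeq2 13, rows with no fractional value 1, and limma-voom, the covariate and the hearts identified by numbers alone 0, with 21, 23 and 26 at an unadjusted p under 0.05. Without each heart in turn this count ran from 0 to 8. With at least 10 CPM, 3 of the 5 genes most like Aqp1 were kept. Aqp1 exceeded Aqp7 31.3 times per kb and 26.5 times in plain CPM in control hearts. No paired analysis was possible because the animals' labels share only a single number between the groups. Depth limits Aqp3, which was at or under 3 counts in every heart.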

Other observations

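Aqp1 has been discussed as a channel for carbon dioxide, so carbonic anhydrases and bicarbonate transporters were looked at beside it. Of 10 tested genes, edgeR called 0, against 0.235% of all tested genes, and DESeq2 called 0, against 3.29%. At an unadjusted p under 0.05, 1 was higher, against 7.17% of all tested genes. The anion exchanger Slc4a3 was the most abundant, at 560 ± 43.7 CPM (SD, n = 4) in control and 613 ± 27.7 CPM (SD, n = 3) in transferred hearts, or 0.13 as a log2 fold change. Car14, a membrane carbonic anhydrase, had -0.15 and Slc4a2 had 0.11. Slc4a10 and Rhcg had 0 reads.

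Genes known to respond to blood flow in endothelium were also looked at. Of 8 tested genes, edgeR called 0, against 0.235% of all tested genes, 0 had an unadjusted p under 0.05 and DESeq2 called 0. The median log2 fold change was 0.06. The most abundant were Cav1 with 0.06, Thbd, the thrombin receptor thrombomodulin, with 0.23, and the angiopoietin receptor gene Tek with 0.00.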
